A study of Mus musculus with 6 samples.

Results

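The mitochondrial ribosomal proteins were followed through osteoclast differentiation as the 78 genes of the expression table whose symbol is Mrpl or Mrps with a number and at most 1 further letter. They were picked by symbol alone from 49315 genes, and 49 carry the large subunit name Mrpl and 29 the small subunit name Mrps. RNA-Seq had been done on 3 libraries of osteoclasts and 3 libraries of bone marrow macrophages (BMMs) from wild-type mice. The osteoclasts were collected on day 4, after RANKL at 75 ng/mL and a smaller amount of CMG14-12 supernatant, which supplies M-CSF. The BMMs were collected on day 0, in growth medium with more of that supernatant and no RANKL. Both media held 10% FBS. The labels number the replicates as biological but name neither mice nor cultures, so the p-values measure the spread between these libraries. No culture without RANKL was taken at day 4, so RANKL, the M-CSF supply and time in culture cannot be told apart.

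Mitochondria keep their own ribosomes, which translate the few proteins encoded in mitochondrial DNA. All of these are subunits of the respiratory chain or of ATP synthase. The RNA of the mitochondrial ribosome comes from the mitochondrial genome, whereas its proteins are encoded in the nucleus, made in the cytosol and imported. The small subunit binds the mRNA and reads its codons, and the large subunit joins the amino acids and sits on the inner membrane. Part of the proteins have counterparts in bacterial ribosomes and part are found only in mitochondria. Osteoclasts, the bone-resorbing cells that form when macrophages fuse, are rich in mitochondria.

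The identity of the cultures was checked first. All 10 osteoclast markers tested were higher in osteoclasts, with a summed level of 38250 to 38840 TPM in osteoclast libraries and 333 to 354 TPM in BMM libraries. TPM is a level per gene length that adds up to the same total in each library. Of 8 macrophage markers tested, 7 were lower in osteoclasts and Cd68 was higher. Neutrophil markers summed to 15 to 27 TPM in osteoclasts and 3030 to 3309 TPM in BMMs, and 9 of 9 were lower. Of 5 stromal markers, the 3 collagen genes Col1a1, Col1a2 and Col3a1 were higher in osteoclasts, and Bglap and Alpl did not pass the filter. Together these 5 summed to 109 to 137 TPM in osteoclasts and 6.12 to 6.32 TPM in BMMs. Markers of T, B and erythroid cells did not pass the filter. The part of these other cells in the results was not tested. In bulk samples, a shift in the share of a cell type and a change in RNA per cell cannot be told apart. Library correlations on the log2 scale were 0.987 to 0.992 among osteoclasts, 0.995 to 0.996 among BMMs and 0.883 to 0.890 between them. Depth cannot be read from TPM, and read numbers were not analysed here.

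Nearly every mitochondrial ribosomal protein gene was higher in osteoclasts than in BMMs. The 78 genes summed to 5703, 6479 and 5798 TPM in osteoclasts, against 3134, 3094 and 3130 TPM in BMMs. The lowest osteoclast library stood well above the highest BMM library. These sums were 0.599% ± 0.042 of all TPM in osteoclasts and 0.312% ± 0.0022 in BMMs (SD, n = 3 each). The median member measured 57.8 TPM in osteoclasts and 28.2 TPM in BMMs. Of the 78 members, 21 averaged at least 100 TPM in osteoclasts and 5 did so in BMMs.

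Each gene was tested with limma on log2(TPM + 1), a scale on which the change of low genes is understated. All 78 members passed the filter on low genes, a mean of 1 TPM or more. At a Benjamini-Hochberg adjusted p under 0.05 over all genes tested, 75 members were higher in osteoclasts, 0 were lower and 3 were not called. At an unadjusted p under 0.05, 0 were lower either, since all 78 log2 fold changes were above 0. Over the 12325 genes tested, 45.3% were higher and 23.5% were lower by the same rule. In 75 members all 3 osteoclast libraries were above all 3 BMM libraries, which held for 47.4% of genes tested. A called rise of at least 1 on the log2 scale was seen in 28 members and in 13.6% of genes tested. The median log2 fold change was 0.91 over the members, with quartiles of 0.66 and 1.08, and 0.19 over all genes tested. When the libraries were scaled by the median ratio of genes instead, the median of all genes moved to about 0, and genes tested split into 4105 higher and 4163 lower, in place of 5585 and 2901. The members then had a median of 0.70, with 71 higher and 33.3% of genes tested higher.

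**Figure D1:**
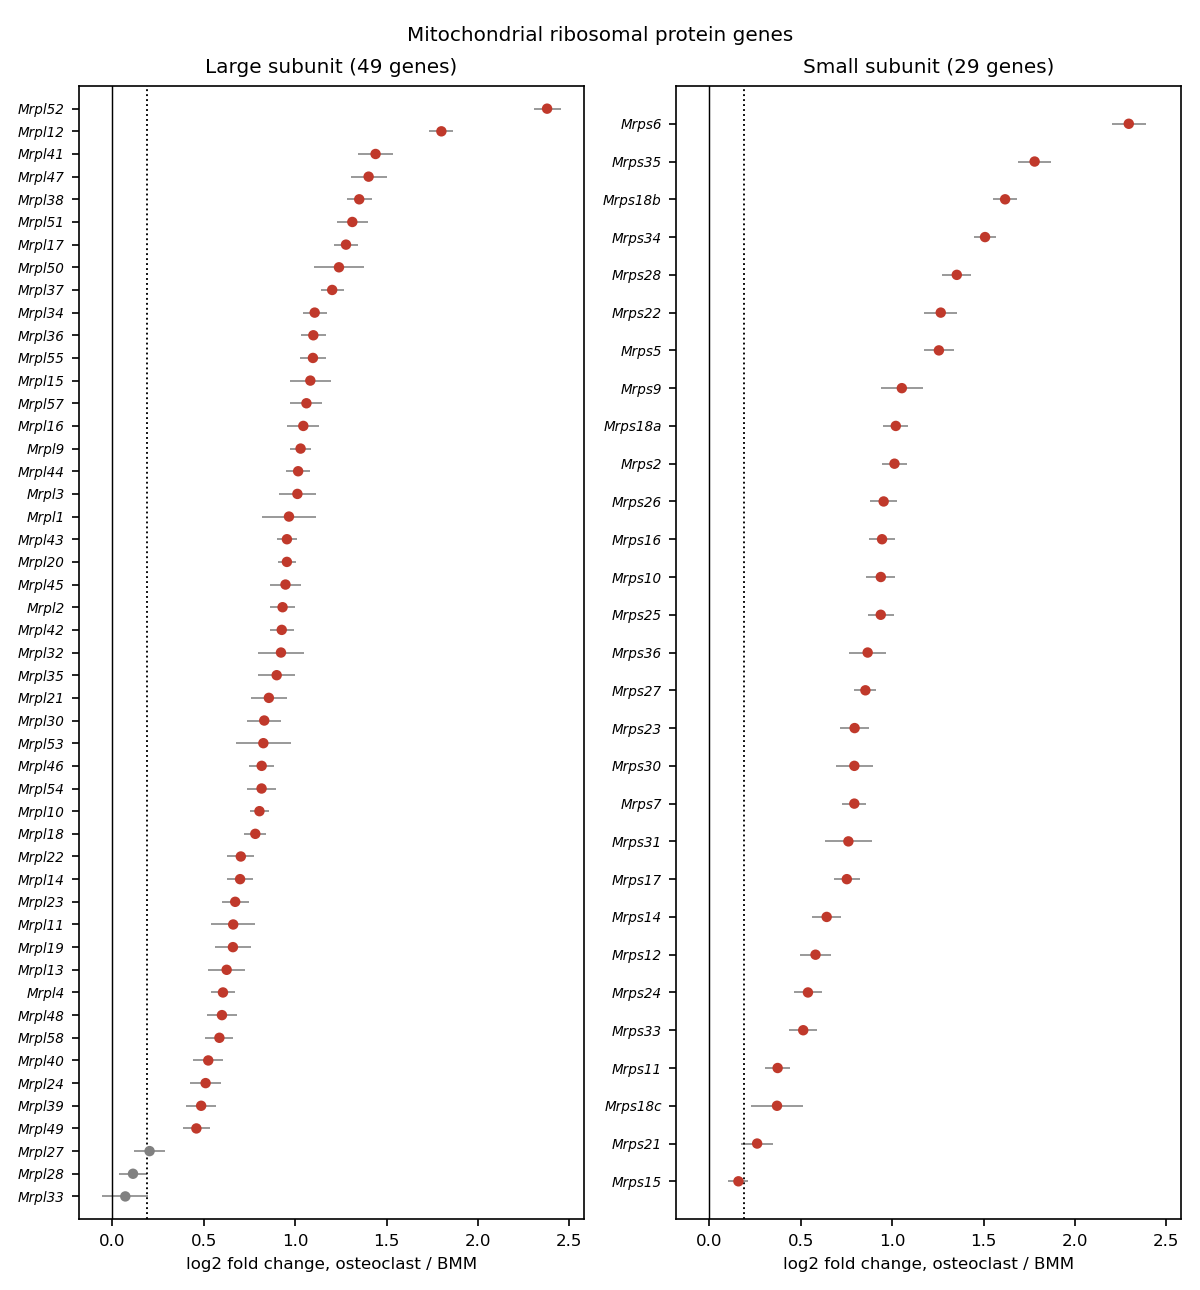
Log2 fold change of osteoclasts over BMMs for each member, with bars for the standard error from limma (3 libraries each); red points are genes at an adjusted p under 0.05, grey points are not called, and the dotted line is the median of all genes tested, 0.19. The large subunit (left) runs from 0.07 for Mrpl33 to 2.38 for Mrpl52, and the small subunit (right) from 0.16 for Mrps15 to 2.29 for Mrps6.

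The upstream sequences of 5 members are shown because they cover the range of responses: Mrpl52 and Mrpl12 had the largest log2 fold changes of the large subunit, Mrpl45 stood near the median, and Mrpl28 and Mrps15 were among the smallest. Each is the 250 bases before the start of transcription in RefSeq on GRCm38.p6, written 5′ to 3′ on the strand of the gene. Capitals mark matches to 5 motifs searched on both strands: GCGCANGCG of the nuclear respiratory factor NRF1, CCGGAAG of the ETS family to which GABP belongs, AAGATGGCG of YY1, AAGGTCA of the estrogen-related receptors, and the E-box CACGTG. The windows lie at chr14:54426659-54426908 (+) for Mrpl52, chr11:120484387-120484636 (+) for Mrpl12, chr11:97315466-97315715 (+) for Mrpl45, chr17:26123253-26123502 (+) for Mrpl28 and chr4:126046678-126046927 (+) for Mrps15.
Mrpl52: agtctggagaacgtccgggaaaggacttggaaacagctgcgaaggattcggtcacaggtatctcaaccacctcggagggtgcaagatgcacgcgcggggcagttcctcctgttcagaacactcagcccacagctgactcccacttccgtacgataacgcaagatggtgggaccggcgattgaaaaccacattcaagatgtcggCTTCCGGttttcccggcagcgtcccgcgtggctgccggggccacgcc
Mrpl12: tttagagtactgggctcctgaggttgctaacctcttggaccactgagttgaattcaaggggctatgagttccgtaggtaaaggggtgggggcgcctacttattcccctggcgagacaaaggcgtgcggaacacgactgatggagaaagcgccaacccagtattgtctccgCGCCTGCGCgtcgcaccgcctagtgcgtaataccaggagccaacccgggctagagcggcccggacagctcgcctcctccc
Mrpl45: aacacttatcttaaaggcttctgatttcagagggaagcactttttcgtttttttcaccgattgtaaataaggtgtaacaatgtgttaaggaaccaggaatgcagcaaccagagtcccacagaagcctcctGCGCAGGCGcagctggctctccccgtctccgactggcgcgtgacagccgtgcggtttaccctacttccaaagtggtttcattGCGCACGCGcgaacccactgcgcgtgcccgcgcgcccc
Mrpl28: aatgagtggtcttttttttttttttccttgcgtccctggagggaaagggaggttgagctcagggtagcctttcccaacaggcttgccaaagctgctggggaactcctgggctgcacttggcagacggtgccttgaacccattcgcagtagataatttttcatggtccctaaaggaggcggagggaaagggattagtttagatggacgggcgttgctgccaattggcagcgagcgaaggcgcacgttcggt
Mrps15: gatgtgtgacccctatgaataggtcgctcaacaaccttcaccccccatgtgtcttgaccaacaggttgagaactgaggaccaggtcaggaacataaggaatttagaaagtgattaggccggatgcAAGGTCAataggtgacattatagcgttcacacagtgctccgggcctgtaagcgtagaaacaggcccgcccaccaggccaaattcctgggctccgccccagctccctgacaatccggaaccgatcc
In these windows Mrpl52 held 1 ETS match, Mrpl12 1 NRF1 match, Mrpl45 2 NRF1 matches and Mrps15 1 match to the receptor motif, whereas Mrpl28 held none of the 5. Other members differed from this pattern. Mrps6 (log2 fold change 2.29) and Mrpl41 (1.44) held no match. Mrpl27 (0.20, not called) held an ETS match, and Mrps21 (0.26) held matches to the NRF1 and receptor motifs. Medians with and without a match are given below.

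All 69 members with an entry in the RefSeq table were then searched in a longer window, from 250 bases before to 50 bases after the start, and the ETS motif was the most common. In this longer window it was present in 34.8% of member windows, 19.9% of the 8998 windows of genes tested and 9.14% of all 27025 windows. The NRF1 motif was present in 23.2% of member windows, 14.7% of those of genes tested and 6.49% of all windows. NRF1 and GABP are transcription factors known for binding upstream of nuclear genes for mitochondrial proteins. The YY1 motif was present in 11.6%, 3.51% and 1.48% of the same 3 sets, the receptor motif in 5.80%, 3.12% and 4.65%, and the E-box in 7.25%, 10.6% and 7.24%. In the 250 bases before the start alone, the ETS motif was present in 23.2% of members, 15.1% of genes tested and 7.07% of all genes, the NRF1 motif in 18.8%, 12.0% and 5.33%, and the YY1 motif in 2.90%, 1.28% and 0.592%. The NRF1 motif can match both strands at nearly the same place, and the receptor motif and the E-box overlap upstream of Mrpl36. In the longer window the median GC content was 58.3% in members, 60.7% in genes tested and 52.7% in all. A match is only a match of letters. In the longer window the median log2 fold change was 0.95 for members with an NRF1 match (n = 16) and 0.86 for those without one (n = 53). With an ETS match the median was 0.86 (n = 24), and without one it was 0.92 (n = 45). In the 250 bases alone this order turned round, with 0.95 for an ETS match (n = 16) and 0.87 without one (n = 53).

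Mrpl52, a large subunit protein found only in mitochondria, had the largest change of the 78. Mrpl52 measured 272, 310.2 and 264 TPM in osteoclasts, against 53.2, 56.0 and 50.7 TPM in BMMs. The groups were far apart, with little spread in either. The log2 fold change of Mrpl52 was 2.38 (standard error, SE, of 0.07; adjusted p = 7.4e-08 from limma). Mrpl52 (ENSMUSG00000010406) lies on chromosome 14 of GRCm38 from 54426909 to 54429756, and its exons overlap no other annotated gene.

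Mrpl12 is the counterpart of bacterial L7/L12, the protein of the flexible stalk that recruits translation factors. Mrpl12 (ENSMUSG00000039640, chromosome 11 from 120484613 to 120489065) measured 277, 325 and 303 TPM in osteoclasts, the highest mean of any member, against 87.0, 83.9 and 86.7 TPM in BMMs. Its log2 fold change was 1.80 (SE 0.07, adjusted p = 1.5e-07 from limma). Exons of Gm16755 cover 13.1% of its exon bases. The values of other stalk proteins were smaller. Mrpl10, which anchors Mrpl12 to the ribosome, measured 93.1, 95.2 and 96.7 TPM in osteoclasts, against 55.0, 52.5 and 54.4 TPM in BMMs (log2 fold change 0.80, SE 0.05). Mrpl11, at the base of the stalk, measured 29.8, 34.7 and 24.2 TPM in osteoclasts, against 18.7, 17.2 and 18.6 TPM in BMMs (log2 fold change 0.66, SE 0.12). Both were called, and in both every osteoclast library was above every BMM library.

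The other large subunit genes with the largest changes were Mrpl41 (log2 fold change 1.44), Mrpl47 (1.40), Mrpl38 (1.35) and Mrpl51 (1.31), all called. Mrpl47 is the counterpart of a bacterial protein at the exit of the peptide tunnel, and Mrpl38 belongs to the central protuberance, where the subunits meet the tRNAs. Mrpl38 measured 54.8, 59.0 and 63.3 TPM in osteoclasts, against 22.7, 22.4 and 22.4 TPM in BMMs. Mrpl47 was a low gene, at 12.5, 14.7 and 11.6 TPM in osteoclasts and 4.14, 4.21 and 4.401 TPM in BMMs. Exons of Actl6a and Ndufb5 cover 24.2% of its exon bases. Mrpl45, which holds the ribosome to the inner membrane, measured 50.0, 50.2 and 42.4 TPM in osteoclasts, against 23.1, 23.7 and 25.6 TPM in BMMs. Mrpl45 had a log2 fold change of 0.95 (SE 0.08, adjusted p = 1.8e-05 from limma), near the median of the members. Mrpl42 measured 279, 321 and 286 TPM in osteoclasts, against 157, 147 and 159 TPM in BMMs, where it was the most abundant member (log2 fold change 0.93).

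3 large subunit genes were not called, and all 3 have bacterial counterparts. So do 29 of the 49 large subunit genes, by the list described below. Mrpl33 measured 10.3, 12.3 and 8.31 TPM in osteoclasts and 9.52, 9.74 and 9.67 TPM in BMMs, so the groups overlapped (log2 fold change 0.07, SE 0.13, adjusted p = 0.63 from limma). Mrpl28 was an abundant gene, at 124, 148 and 127 TPM in osteoclasts and 122, 120.2 and 126 TPM in BMMs (log2 fold change 0.11, SE 0.07, adjusted p = 0.21 from limma). Mrpl27, whose bacterial counterpart reaches into the peptidyl transferase centre, measured 107, 133 and 125 TPM in osteoclasts and 111, 101 and 104 TPM in BMMs (log2 fold change 0.20, SE 0.08, adjusted p = 0.060 from limma). In both Mrpl28 and Mrpl27, osteoclast replicate 1 lay within the range of the BMM libraries and the other 2 osteoclast libraries lay above it. Under median-ratio scaling the log2 fold changes of Mrpl33, Mrpl28 and Mrpl27 were -0.12, -0.10 and -0.01, and without osteoclast replicate 2 that of Mrpl33 was -0.06 and that of Mrpl28 was 0.03. Without osteoclast replicate 1, Mrpl27 was called, at a log2 fold change of 0.29 (adjusted p = 0.0066 from limma). Mrpl49 had the smallest change among called large subunit genes, at 58.3, 66.0 and 62.3 TPM in osteoclasts and 48.5, 43.9 and 42.5 TPM in BMMs (log2 fold change 0.46). The lowest member of all was Mrpl53, at 5.31, 5.31 and 6.83 TPM in osteoclasts and 2.13, 3.07 and 3.39 TPM in BMMs. Exons of other genes cover 88.0% of its exon bases.

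**Figure D2:**
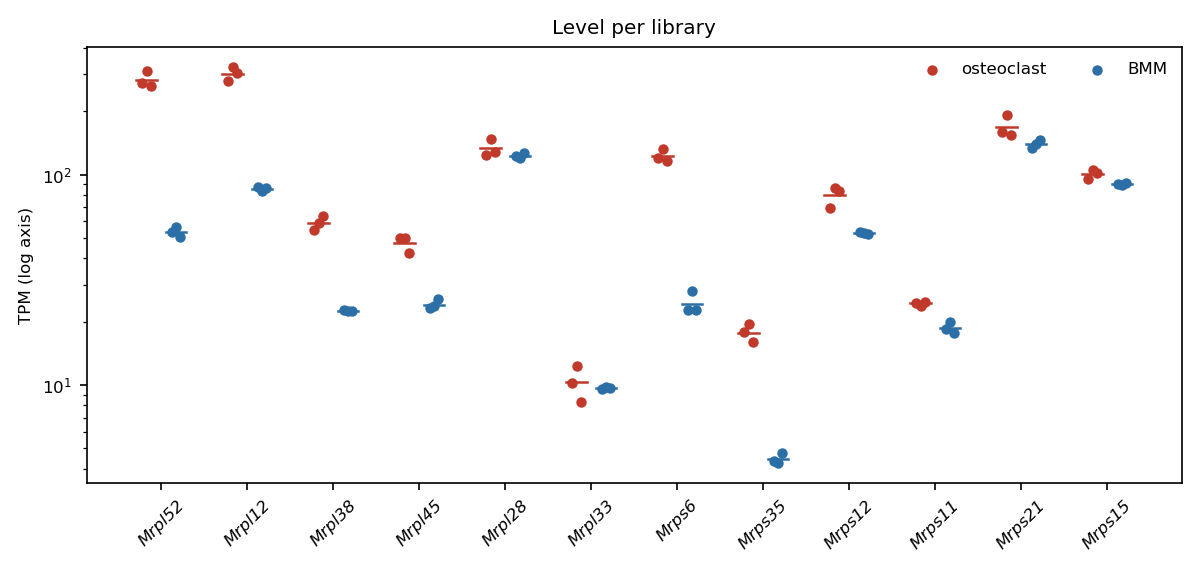
TPM per library on a log axis for 12 members, with osteoclasts (red) left of BMMs (blue) and a bar at each group mean (3 libraries each). Mrpl52, Mrpl12, Mrps6 and Mrps35 show wide gaps between the groups, whereas Mrpl33 and Mrpl28 overlap and Mrps21 and Mrps15 nearly touch.

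In the small subunit, all 29 genes were called higher in osteoclasts. Mrps6, the counterpart of bacterial S6, measured 120.2, 132 and 116 TPM in osteoclasts, against 22.7, 27.8 and 22.6 TPM in BMMs. It had a log2 fold change of 2.29 (SE 0.09, adjusted p = 2.5e-07 from limma). Mrps6 (ENSMUSG00000039680) spans chromosome 16 from 92058270 to 92112227, and 19.9% of its exon bases overlap Slc5a3 and Gm49711, whose reads may be shared with it. Mrps35, found only in mitochondria, was a low gene. Mrps35 measured 17.8, 19.4 and 15.999 TPM in osteoclasts, against 4.36, 4.24 and 4.74 TPM in BMMs (log2 fold change 1.78, SE 0.09, adjusted p = 8.4e-07 from limma), and its exons overlap no other gene.

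The next largest change was that of Mrps18b (log2 fold change 1.62), which has a bacterial counterpart. It was followed by Mrps34 (1.51), Mrps28 (1.35) and Mrps22 (1.27), 3 proteins that the list used here did not class as having one. Mrps34, needed for a stable small subunit, measured 115, 126 and 127 TPM in osteoclasts, against 44.3, 42.2 and 41.1 TPM in BMMs. Its exons overlap Nme3 and Mapk8ip3 over 77.8% of their bases, so its reads are the least certain of these. Mrps28 measured 104, 125 and 108 TPM in osteoclasts, against 44.8, 44.0 and 40.8 TPM in BMMs. Mrps22 measured 23.0, 24.4 and 19.5 TPM in osteoclasts, against 8.82, 8.48 and 8.70 TPM in BMMs. Mrps12, whose bacterial counterpart lines the decoding centre, had a smaller value, at 69.1, 86.4 and 83.5 TPM in osteoclasts and 53.2, 52.9 and 52.0 TPM in BMMs (log2 fold change 0.58, SE 0.09). All of these groups were fully separated.

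The 3 mammalian relatives of bacterial S18 had values of different size. Mrps18b rose by 1.62 on the log2 scale (SE 0.06), with 47.5, 50.2 and 47.6 TPM in osteoclasts and 15.99, 14.95 and 14.4 TPM in BMMs. Exons of Gm16279 cover 30.5% of its exon bases, and those of Gm43511 cover 23.2% of those of Mrps18c, so reads may be shared. Mrps18a, which sits in the large subunit in spite of its name, rose by 1.02 (SE 0.07), with 42.3, 48.7 and 45.1 TPM in osteoclasts and 22.2, 22.02 and 21.3 TPM in BMMs. Mrps18c had the smallest value of the 3, 0.37 (SE 0.14, adjusted p = 0.044 from limma), with 56.9, 75.6 and 48.8 TPM in osteoclasts and 45.1, 45.3 and 47.1 TPM in BMMs. As SD over mean, the spread of Mrps18c among osteoclasts was the widest of any member, at 22.7%. Its call was lost when osteoclast replicate 1 (adjusted p = 0.086 from limma) or any BMM library (0.079 to 0.10) was left out. Without osteoclast replicate 2 its log2 fold change was 0.20, and it was still called. The differences between the 3 genes were not tested.

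The smallest changes of the small subunit were those of Mrps15, Mrps21, Mrps18c and Mrps11, all counterparts of bacterial proteins. By the list used here, 17 of the 29 small subunit genes have such a counterpart. Mrps15 (ENSMUSG00000028861) measured 95.5, 106 and 102 TPM in osteoclasts and 90.6, 89.5 and 90.7 TPM in BMMs, a log2 fold change of 0.16 (SE 0.05, adjusted p = 0.031 from limma). Mrps15 lay below the median of all genes tested, its direction turned under median-ratio scaling (log2 fold change -0.05), and its call was lost without any 1 of the BMM libraries (adjusted p = 0.090 to 0.11). Mrps21, the small subunit gene with the highest mean over all 6 libraries, measured 159, 192 and 154 TPM in osteoclasts and 134, 139 and 146 TPM in BMMs (log2 fold change 0.26, adjusted p = 0.026 from limma). Mrps21 was not called without BMM replicate 1 (adjusted p = 0.088) or BMM replicate 2 (0.070), nor with no filter on low genes. Without osteoclast replicate 2 its log2 fold change was 0.16, and it was still called. Mrps11 measured 24.5, 23.8 and 24.9 TPM in osteoclasts and 18.4, 19.9 and 17.6 TPM in BMMs (log2 fold change 0.37). Mrps16, the most abundant small subunit gene in osteoclasts, measured 157, 187 and 172 TPM in osteoclasts, against 91.7, 88.7 and 85.8 TPM in BMMs (log2 fold change 0.94).

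The subunits were then set side by side. The large subunit had 46 of 49 genes called higher at a median of 0.92 (log2 fold change), and 18 rose by at least 1. The small subunit had 29 of 29, with a median of 0.87, and 10 rose by at least 1. The difference between the medians was 0.06 and was not tested. It ranged from -0.01 without BMM replicate 1 to 0.11 without BMM replicate 3, so its direction rested on single libraries. The mean log2 level of the large subunit exceeded that of the small subunit by 0.253 ± 0.0061 in osteoclasts and 0.278 ± 0.025 in BMMs (SD, n = 3 each).

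Sums weigh the abundant genes more, and by sums the ratio of the large subunit was the larger one. Large subunit RNA summed to 4171 ± 291 TPM in osteoclasts and 2109 ± 22.7 TPM in BMMs (SD, n = 3 each), a ratio of 1.98. Small subunit RNA summed to 1822 ± 132 TPM in osteoclasts and 1011 ± 6.0 TPM in BMMs, a ratio of 1.80. The sum of the large over that of the small subunit was 2.29, 2.28 and 2.30 in osteoclasts, against 2.08, 2.06 and 2.12 in BMMs, so the groups did not overlap. Mrpl52 and Mrpl12 made up 11.1% and 10.5% of the large subunit's difference in TPM. Without these 2 genes, chosen after their values were seen, the large subunit's ratio was 1.82. Leaving out the genes that add most lowers a ratio by itself, and the small subunit was left whole. The ratio of 1.82 is thus not a like match for 1.80. In the small subunit Mrps6, Mrps16 and Mrps34 made up 12.2%, 10.3% and 9.91% of the difference.

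**Figure D3:**
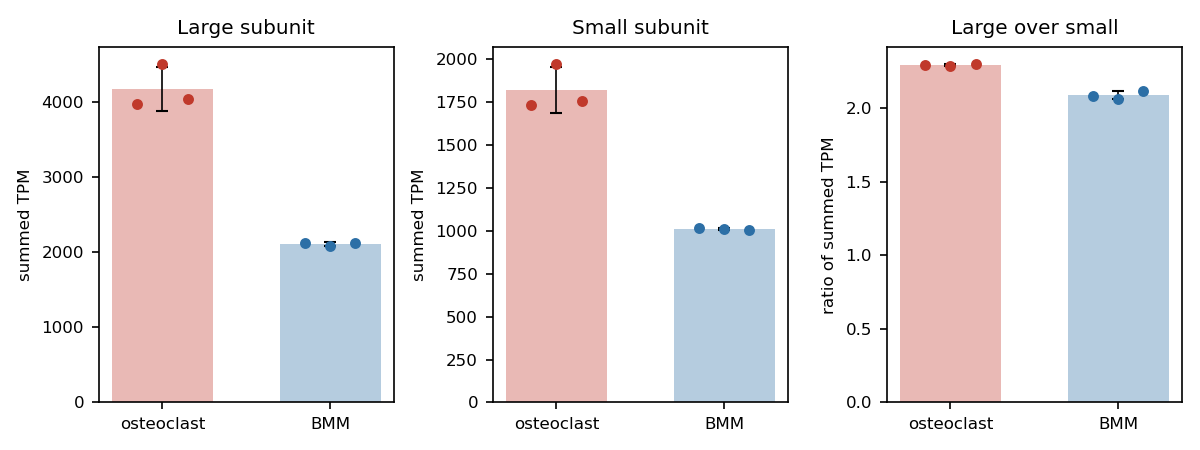
Summed TPM of the 49 large subunit genes (left) and the 29 small subunit genes (middle) and the ratio of the sums (right), with osteoclasts left of BMMs; points are libraries, bars the mean and lines the SD (n = 3 each). Both sums are higher in all 3 osteoclast libraries, and the ratio is 2.28 to 2.30 in osteoclasts and 2.06 to 2.12 in BMMs.

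Gene symbols do not always follow the structure of the ribosome. Mrps18a and Mrps30 sit in the large subunit, and Mrps36 has been assigned to the oxoglutarate dehydrogenase complex in place of the ribosome. Mrps30 measured 38.1, 41.8 and 31.6 TPM in osteoclasts, against 20.1, 21.7 and 20.9 TPM in BMMs (log2 fold change 0.79). Mrps36 measured 59.3, 65.4 and 50.1 TPM in osteoclasts, against 33.5, 30.7 and 29.8 TPM in BMMs (log2 fold change 0.87). With these genes placed by structure, 48 of 51 large subunit genes were higher, with a median of 0.92, and 26 of 26 small subunit genes, with a median of 0.90.

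Members were also split by a fixed list of protein families with a bacterial counterpart, set by gene number and not checked by sequence. Of the 46 members on that list, 43 were higher, with a median log2 fold change of 0.84. The 31 members off the list, without Mrps36, were classed as found only in mitochondria, and all were higher, with a median of 0.95. The smallest value among these 31 was 0.46, for Mrpl49, whereas the 3 genes that were not called and the 4 smallest of the small subunit had bacterial counterparts. This split was noticed with the values in view and was not tested.

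The members had a similar order of levels in both groups. Across the 78 genes, log2 levels in osteoclasts and BMMs had a Pearson r of 0.94 and a Spearman rho of 0.95, a description over genes that are not independent and share libraries. The log2 fold change had an r of -0.18 with the log2 level in BMMs and 0.05 with the log2 of exon length. Among all genes tested, short genes had the larger values. The median log2 fold change was 0.36 for genes of up to 1500 exon bases and 0.12 for those over 5000. The 20 members of up to 1500 bases had a median of 0.82, and the 14 over 5000 bases 0.94.

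Osteoclast libraries were not alike for these genes. Osteoclast replicate 2 was the highest of the 3 in 66 of 78 members, or 84.6%, and in 3697 of the 12325 genes tested. It was highest in 90.4% of cytosolic ribosomal protein genes and 81.3% of nuclear genes for subunits of oxidative phosphorylation (OXPHOS). Among all genes tested its share was 46.3% up to 1500 exon bases and 15.1% over 5000, whereas it was highest in 18 of 20 members and 14 of 14 members of these lengths. In the same library Gm23935 took 0.423% of all TPM, against 3.71% and 3.52% in the other osteoclast libraries and 5.72% to 7.10% in BMMs. Its part in the order of the libraries was not tested. Without osteoclast replicate 2, 75 members were called higher, and no member's call changed. The spread of a member within a group, as SD over mean, had a median of 8.75% in osteoclasts and 3.78% in BMMs.

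Many members share a start region with a neighbour. In 33 members, or 42.3%, a protein-coding gene on the opposite strand started within 1000 bases, against 17.6% of 10972 protein-coding genes tested. 2 of the 33, Mrpl46 and Mrps11, start 412 bases from each other on chromosome 7, with log2 fold changes of 0.82 and 0.37. Of the 30 neighbours tested, which include Mrpl46 and Mrps11 themselves, 19 were higher in osteoclasts, 1 was lower and 10 were not called. Over all genes tested, 45.3% were higher and 23.5% were lower. The median log2 fold change of the neighbours was 0.39, below that of the members and above the 0.19 of all genes tested. Several neighbours also encode mitochondrial proteins. Twnk, the mitochondrial DNA helicase next to Mrpl43, had a log2 fold change of 1.29, Ndufb5, a complex I subunit next to Mrpl47, 1.21, and Ndufs6, a complex I subunit next to Mrpl36, 1.02. The values of Sars2, a mitochondrial seryl-tRNA synthetase next to Mrps12, and of Ptcd2, an RNA-binding protein of mitochondria next to Mrps27, were 0.96 and 1.08. All 5 were called. Some of these pairs also overlap in their exons, so reads may be shared. Twnk covers 33.4% of the exon bases of Mrpl43, and Ndufb5 and Actl6a cover 24.2% of those of Mrpl47. Ndufs6 covers 2.58% of those of Mrpl36. Other neighbours did not follow their member. Ppp1r10, 45 bases from Mrps18b, measured 24.9 TPM in osteoclasts and 23.3 TPM in BMMs (log2 fold change 0.09, not called), while Mrps18b rose by 1.62. Pnpla7, 935 bases from Mrpl41, was lower in osteoclasts (log2 fold change -0.33), while Mrpl41 rose by 1.44. These neighbours were chosen after their values were seen.

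**Figure D4:**
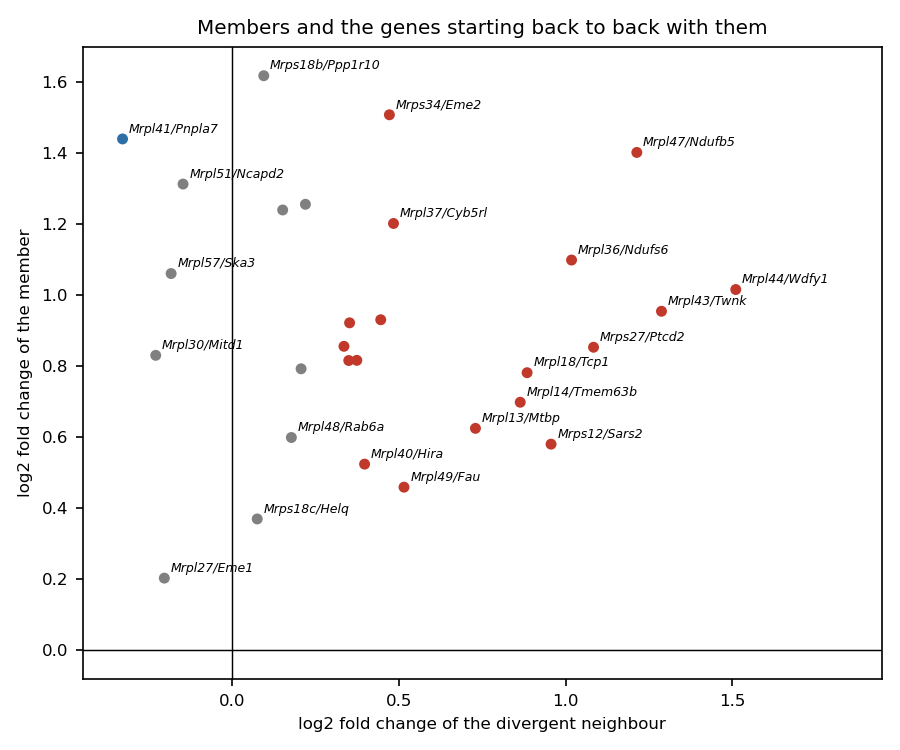
Log2 fold change of each member against that of the protein-coding neighbour starting on the opposite strand within 1000 bases; red, grey and blue mark neighbours that were higher, not called and lower in osteoclasts, and Mrpl46 and Mrps11 are drawn once. All points lie above 0 on the vertical axis, whereas neighbours run from -0.33 (Pnpla7) to 1.51 (Wdfy1).

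Overlap with other genes could add reads, since the strand setting of the counting was not given in the sources used here. Exons of 33 members overlap those of another gene, and 31 of these were higher, with a median log2 fold change of 0.82. The 45 members without overlap had 44 higher and a median of 0.94. Members can also share sequence with other genes, through overlap or through near copies elsewhere. In 27 members at least 1 window of 150 bases, the read length, occurred in another gene's transcripts, overlapping genes included. Of the 39 members with neither overlap nor a shared window, 38 were higher, with a median of 0.95, and Mrpl28 was not called.

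5 further proteins of the mitochondrial ribosome go by other symbols, and all 5 were higher in osteoclasts. Ptcd3, which binds RNA in the small subunit, measured 21.004, 21.1 and 15.5 TPM in osteoclasts, against 6.92, 6.84 and 6.60 TPM in BMMs (log2 fold change 1.36). Gadd45gip1, a large subunit protein near the tunnel exit, had a log2 fold change of 1.05, and Chchd1, of the small subunit, 0.99. The GTP-binding small subunit protein Dap3 had a value of 0.71 and Aurkaip1 one of 0.48.

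The values were more mixed among genes that build the ribosome. Over all genes tested 45.3% were higher, and of 25 assembly factors 22 were higher, 1 was lower and 2 were not called. The factors had a median log2 fold change of 0.55. The largest changes were those of Mettl15, a methyltransferase of the small subunit RNA, and of the GTPase Noa1, both at 1.62. Mettl15 measured 7.05, 8.93 and 7.30 TPM in osteoclasts, against 1.82, 2.00 and 1.70 TPM in BMMs. Rbfa, which binds the maturing small subunit, was lower, at 113, 122 and 112 TPM in osteoclasts and 133, 136 and 135 TPM in BMMs (log2 fold change -0.22, SE 0.05, adjusted p = 0.0067 from limma). Ybey had a log2 fold change of -0.12 (adjusted p = 0.39) and Mterf4 0.15 (adjusted p = 0.22), and neither was called.

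The 12 genes listed as mitochondrial translation factors were all higher, with a median of 0.78. Gfm1, the elongation factor that moves the ribosome along the mRNA, measured 79.9, 76.8 and 73.1 TPM in osteoclasts, against 23.9, 24.3 and 23.4 TPM in BMMs (log2 fold change 1.64). Tsfm, which recharges the factor that delivers tRNA, had a value of 1.52. The smallest were those of the initiation factor Mtif3 (0.34) and the release factor family member Mtrf1 (0.28).

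Upstream of translation, 6 of 9 genes of mitochondrial transcription and mRNA stability were higher and 3 were not called. Of all genes tested, 45.3% were higher. Lrpprc, which stabilizes mitochondrial mRNA, had a log2 fold change of 1.22, and the transcription factor Tfb2m 0.90. Slirp, the binding partner of Lrpprc, measured 20.2, 23.99 and 22.7 TPM in osteoclasts and 21.1, 20.3 and 20.6 TPM in BMMs (log2 fold change 0.10, adjusted p = 0.26 from limma). Mterf1a had a value of 0.20 and was not called.

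Most of the mRNAs that these ribosomes translate were called higher, whereas 45.3% of all genes tested were. Of the 13 mitochondrially encoded protein genes, 12 passed the filter, 8 were called higher and 4 were not called, with a median of 0.94. Their summed level was 24380, 25710 and 16430 TPM in osteoclasts, against 10850, 11560 and 11640 TPM in BMMs, and osteoclast replicate 3 was the lowest of its group. Without osteoclast replicate 3, 12 were called, and over the fits with 1 library left out the count ran from 6 to 12. The largest values were those of mt-Nd4l (1.12) and mt-Nd2 (1.09), and the smallest those of mt-Co2 (0.47) and mt-Atp6 (0.44, not called). Levels were low for mt-Nd4l, at a mean of 8.16 TPM in osteoclasts and 3.08 TPM in BMMs, with overlapping groups (SE 0.37). Those of mt-Atp6 averaged 1.33 TPM in osteoclasts and 0.68 TPM in BMMs. Also not called were mt-Co3, at means of 6.28 TPM in osteoclasts and 3.22 TPM in BMMs, and mt-Nd3, at 17.7 and 7.76 TPM. The other gene not called, mt-Nd6, was abundant, at 1074 TPM in osteoclasts and 404 TPM in BMMs (log2 fold change 1.07, SE 0.55). The level of mt-Co2 averaged 1.77 TPM in osteoclasts and 1.02 TPM in BMMs, far under that of mt-Co1, at 9982 TPM in osteoclasts and 5562 TPM in BMMs. How the counting treated reads that match several places is unknown.

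The other lists give the surroundings of this change. Of 75 nuclear OXPHOS genes, 74 were higher, with a median of 1.15, above that of the members. Cyc1 (2.13) and Uqcrc2 (1.85), both of complex III, led that list, and Ndufa7 (0.50) and Atp5s (0.12, not called) closed it. Of 83 cytosolic ribosomal protein genes tested, 81 were higher, with a median of 0.72, below that of the members. Rpl39l (1.54) and Rpl4 (1.08) had the largest values of that list, and Rps29 (0.19) and Rps4l (-0.08) were not called. A called rise of at least 1 was seen in 51 of 75 OXPHOS genes, 28 of 78 members and 5 of 83 cytosolic ribosomal protein genes. The share of all genes tested with such a rise was 13.6%. Of 15 cell cycle genes, 2 were higher, 4 were lower and 9 were not called. The higher ones were Bub1 (0.63) and Ccnb1 (0.16), and Pcna (-0.75) and Mki67 (-0.35) had the lowest values. Of all genes tested, 45.3% were higher and 23.5% were lower. The counts of the cell cycle list ran from 1 to 4 in each direction when 1 library was left out. No list was tested against another.

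**Figure D5:**
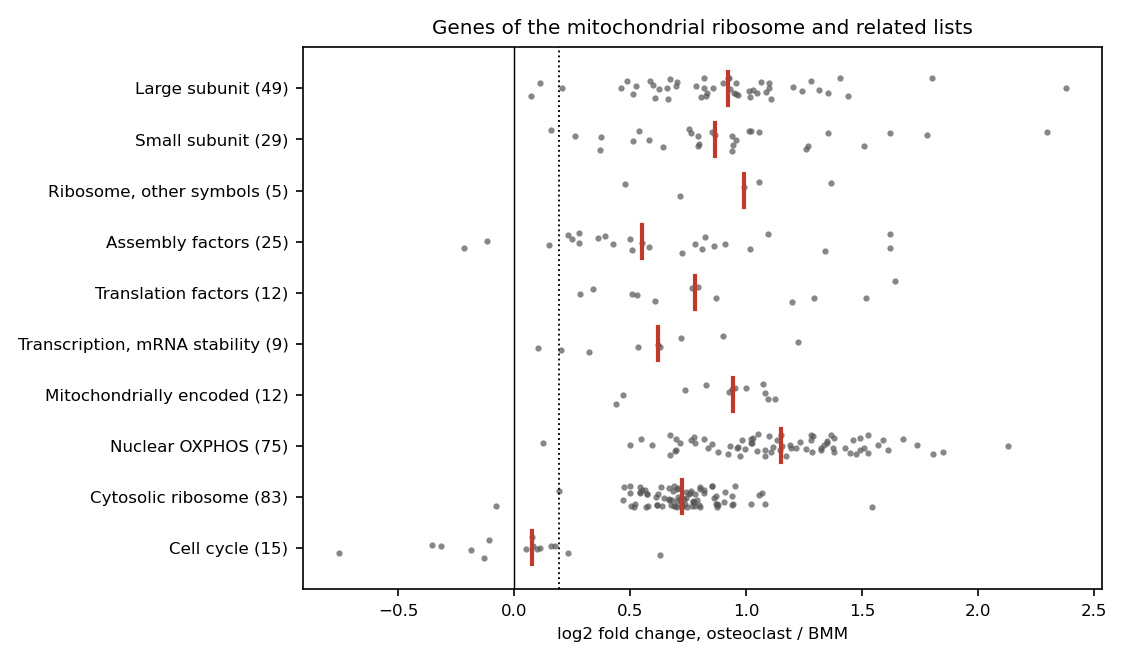
Log2 fold change of osteoclasts over BMMs for every tested gene of the members and the related lists (number of genes in parentheses); red bars are medians and the dotted line is the median of all genes tested, 0.19. The medians of the large subunit, 0.92, and the small subunit, 0.87, lie between those of the cytosolic ribosome, 0.72, and nuclear OXPHOS genes, 1.15.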

How the data were processed

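Per the methods and GEO's processing notes, bcl2fastq 2.17 made the paired reads (150 bases each), Trimmomatic 0.36 trimmed them and STAR 2.5.2b placed them on mm10. The authors deposited 1 TPM value per gene and library. How reads were counted (tool, strand, reads with several matches) and turned into TPM is not given in the sources used here. Deposited TPM values were used as they are. The test was limma 3.58.1 (R 4.3.3) on log2(TPM + 1), with the intensity trend, for genes averaging 1 TPM or more, two-sided, with Benjamini-Hochberg adjustment and 0.05 as the threshold. This step was also tested on simulated data. The members and lists were chosen with earlier results of these data known. Coordinates, exon overlaps and shared windows came from GENCODE vM21 on GRCm38, in which all 78 members matched by identifier. Genes named were those not called, the 6 largest and 4 smallest changes and the 3 highest levels of each subunit, 10 genes chosen by role, and the 2 largest and 2 smallest of each related list. Others were chosen after their values were seen. Tables were handled with Python 3.11.15 and pandas 2.3.3, and plots were drawn with matplotlib 3.10.9. Alternatives covered the pseudocount, the filter, the scaling, the trend, a replicate block, the loss of each library in turn, and a log2 fold change of at least 1.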

Additional observations from a re-analysis of the deposited data

How the results depend on the processing

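Of the 78 members, 73 kept their call in all 15 refits in which they were tested, and Mrpl53 was not tested at a filter of 5 TPM. The exceptions were Mrps15, Mrps18c, Mrps21, Mrps11 and Mrpl27. Of the 75 called members Mrps15 alone changed direction in a refit, whereas the 3 that were not called (Mrpl33, Mrpl28 and Mrpl27) fell below 0 in some. The members called higher numbered 71 under median-ratio scaling and under quantile normalization, and 72 to 75 with 1 library left out. A log2 fold change of at least 1 left 28 members, 18 of the large and 10 of the small subunit. The median of the members was 0.70 under median-ratio scaling, 0.70 under quantile normalization and 0.75 once the 20 most abundant genes and those of the mitochondrial genome were removed. Mrps15 turned to -0.0532, -0.0610 and -0.0122 under these 3 settings, and Mrps21 and Mrps18c were not called under any of them. Mrps11 was not called under the first 2. Mrps21 and Mrps18c were not called with no filter. The difference between the subunit medians ran from -0.0078 to 0.105 with 1 library left out and was 0.0268 with genes placed by structure. Without the intensity trend, Mrps15 and Mrps18c were not called. With the replicate block, 74 members were called higher and Mrps15 was not (adjusted p = 0.073 from limma). The numbers were not taken as pairs, since same-numbered libraries had correlations of deviations from -0.07 to -0.003. The depth of the libraries is unknown, and the low genes Mrpl53, Mrps35 and Mrpl47 rest on few TPM. The causes of these changes were not tested.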
